A study of Mus musculus with 15 samples.

Results

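The Zfp zinc finger genes were taken as every transcript of the deposited expression table that maps to a protein-coding mouse gene whose symbol is Zfp followed by a number. The rule used the name alone and no measured value, although the family itself was taken up with earlier results of these data known. It found 322 genes among 12089 transcripts, of which 11973 matched a gene, and each of the 322 had a value above 0 in all 15 libraries. Mouse dental mesenchymal cells (mDMCs) came from molar tooth germs of ICR embryos at embryonic day 14.5. After dispase had removed the epithelium, the mesenchyme was dissociated with trypsin. The cells were either collected fresh (0 h, 3 libraries) or plated in serum-containing medium and collected at 12 h (2 libraries), 24 h, 36 h and 48 h (3 libraries each). Undissociated mesenchyme gave 1 library, called tissue here, so differences from tissue had no replicate check. All groups were the same strain and stage, and none carried a mutation or a drug treatment. Cultures were mixed populations, and the labels do not say that libraries of a group came from separate embryos or dishes. The p-values below therefore measure the spread between libraries, which may be technical.

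Most Zfp proteins read DNA with tandem C2H2 fingers, each a short fold held by a zinc ion between cysteine and histidine residues. Many also carry a KRAB domain at their start, which recruits the scaffold protein Trim28 and, through it, the histone methyltransferase Setdb1 to silence nearby chromatin, often at retroelements. Such KRAB genes lie in large tandem clusters in the mouse genome. Other Zfp proteins lack KRAB and act as developmental regulators, and a few, led by Zfp36, have CCCH fingers that bind AU-rich messenger RNA and speed its decay.

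The coding sequences were searched for these folds. At least 1 C2H2 pattern was found in the translated coding sequence of 312 of the 322 genes, and the median gene held 11 fingers, with up to 41. The 10 without a match included the 3 CCCH genes Zfp36, Zfp36l1 and Zfp36l2, and also Zfp365, Zfp503, Zfp703, Zfp330, Zfp839, Zfp185 and Zfp935. A KRAB-like letter pattern was found in 162 genes and not in 160. It is a letter match, so divergent KRAB domains were missed: Zfp57, a known Trim28 binder, is among the 160. The KRAB genes held a median of 12 fingers against 8 in the others. Their transcripts had a lower median GC content of 42.1%, against 49.6% in the other Zfp genes and 50.1% over all transcripts.

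The upstream regions of 4 genes are printed because they hold letters whose share among Zfp promoters is given below, or belong to a gene described below. Each shows the 250 bases before the RefSeq start of the gene on build GRCm38.p6, 5′ to 3′ on the gene's own strand, with the motif in capitals. Zfp36 is on chromosome 7, minus strand, chr7:28379229-28379478, and the capitals mark a CArG box, the class of site bound by serum response factor, which begins 58 bases before the start. The transcript listed for Zfp36 in the table begins farther upstream than that start. Zfp688 is chr7:127422035-127422284, minus strand, and Zfp719 is chr7:43579336-43579585, plus strand. Zfp800 is chr6:28261925-28262174, minus strand.
Zfp36: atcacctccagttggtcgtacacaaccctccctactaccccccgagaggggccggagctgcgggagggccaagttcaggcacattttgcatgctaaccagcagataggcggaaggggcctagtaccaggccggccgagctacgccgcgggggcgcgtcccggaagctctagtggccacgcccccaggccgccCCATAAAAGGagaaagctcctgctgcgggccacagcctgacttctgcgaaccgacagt
Zfp688: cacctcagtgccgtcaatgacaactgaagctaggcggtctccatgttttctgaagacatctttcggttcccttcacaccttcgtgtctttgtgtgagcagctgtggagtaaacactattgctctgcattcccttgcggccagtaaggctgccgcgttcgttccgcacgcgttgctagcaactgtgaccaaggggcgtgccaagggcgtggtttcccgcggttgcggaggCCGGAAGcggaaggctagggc
Zfp719: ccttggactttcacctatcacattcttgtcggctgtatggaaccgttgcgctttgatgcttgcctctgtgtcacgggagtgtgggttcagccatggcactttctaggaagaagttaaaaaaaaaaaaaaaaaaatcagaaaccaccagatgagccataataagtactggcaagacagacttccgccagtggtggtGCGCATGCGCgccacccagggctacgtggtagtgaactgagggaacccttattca
Zfp800: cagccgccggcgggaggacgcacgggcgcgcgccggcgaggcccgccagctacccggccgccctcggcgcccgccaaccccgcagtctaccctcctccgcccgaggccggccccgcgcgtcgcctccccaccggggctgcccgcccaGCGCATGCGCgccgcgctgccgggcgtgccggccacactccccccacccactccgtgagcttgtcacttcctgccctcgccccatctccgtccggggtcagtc

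Promoter windows of 250 bases before to 50 bases after each RefSeq start were found for 267 of the 322 genes, 322 windows in all. They were searched on both strands, and a match here is a match of letters only. The ETS-type letters CCGGAAG, shown in Zfp688, were in 21.1% of Zfp windows and in 8.86% of all windows. The palindrome of GCGCA directly followed by TGCGC, the pattern known for nuclear respiratory factor Nrf1, was in 12 Zfp windows, which is 3.73% against 0.971% of all. It was in 7 of 111 windows of Zfp genes called higher at 48 h than at 0 h, among them Zfp719 and Zfp800, and in 0 of 101 windows of those called lower. The YY1-type letters GCCATNTT leaned the other way, with 7.21% of the windows of genes called higher, 17.8% of those called lower and 6.05% of all. A CArG box was in 4 Zfp windows, those of Zfp36, Zfp619, Zfp644 and Zfp871, or 1.24% against 1.63% of all. TTTCCGG, at 11.5% of Zfp windows against 3.54% of all, shares TTCCGG with the reverse complement of the ETS-type letters. CCAAT was in 47.8% against 37.4%, GGGCGG in 45.7% against 35.7%, TGACTCA in 3.42% against 5.2%, TGACGTCA in 3.11% against 1.79% and CACGTG in 5.9% against 7.15%. Split into windows of genes called higher and lower, CCGGAAG was in 26.1% and 15.8% and TTTCCGG in 15.3% and 6.93%. GGGCGG was in 39.6% and 58.4%, CCAAT in 48.6% and 40.6%, TGACTCA in 5.41% and 0.99% and TGACGTCA in 4.5% and 2.97%. CACGTG was in 8.11% and 4.95%, and the CArG box in 0 and 3 windows. Of the genes with CACGTG, Zfp758, Zfp820, Zfp942, Zfp943, Zfp944, Zfp946, Zfp947 and Zfp994 lie in the largest cluster of chromosome 17. In that cluster 14 of 18 genes were called higher, and its windows are not independent. With and without KRAB, the shares were 22.4% and 19.9% for CCGGAAG, 14.3% and 8.7% for TTTCCGG and 37.9% and 53.4% for GGGCGG. They were 53.4% and 42.2% for CCAAT, 3.73% and 3.11% for TGACTCA and 3.73% and 2.48% for TGACGTCA. They were 8.07% and 3.73% for CACGTG, 4.35% and 3.11% for the Nrf1 pattern and 13.7% and 10.6% for GCCATNTT. Both were 1.24% for the CArG box. Direction of change and KRAB match were not separated. These shares had no test. The median GC content of the windows was 55.5% for Zfp genes and 52.7% for all. It was 53.3% and 60.7% with and without KRAB, and 55.0% and 58% for genes called higher and lower. The part of GC content in the shares was not tested.

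Expression is given as the deposited score, a whole number already brought by the authors to a distribution shared by all libraries, with a median over transcripts of 721 in each. Each row is listed under 1 transcript, and it is not stated whether its score counts that transcript or the whole gene. A score of a given row can be compared between libraries, and depth is unknown. Differences are log2 fold changes of score + 1 with their standard error (SE), and a gene is called at a Benjamini-Hochberg adjusted p below 0.05 in limma over 12079 transcripts. Zfp messages were scarce. The median Zfp gene had a score of 392.5 at 0 h against 731 for all transcripts, and the KRAB genes were lower, at 237.2, than the other Zfp genes, at 676. Scores of members ranged from 23 to 6365. Levels per kb depend on which transcript length applies, so both are given. Per kb of the longest annotated transcript, the most abundant at 0 h were Zfp207 at 1734, a spindle and kinetochore protein, Zfp740 at 1451 and Zfp146 at 1383. Per kb of the listed transcript, the order was Zfp260, Zfp462, Zfp407, Zfp207 and Zfp740, with the leading trio listed by isoforms of under 1 kb.

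Some facts of the series touch all comparisons with 0 h. The dental mesenchyme markers were all present, with 11 of 11 measured and a summed score of 134164 to 231976 in every library of mDMCs and 134143 in tissue. Vim, Prrx1 and Col1a1 made up most of that sum, and 7 of the 11 were lower at 48 h than at 0 h, Pdgfra (-2.69), Pax9 (-2.37), Lhx6 (-1.60), Twist1 (-0.81), Barx1 (-0.79), Msx1 (-0.58) and Lhx8 (-0.34), while Vim was higher (1.18). Freshly isolated cells and tissue also held other cells. Red cell markers, 6 of 6 measured, summed to between 97654 and 150514 at 0 h and to at most 757 in culture. Endothelial markers, 5 of 5, summed to between 6827 and 8013 at 0 h and to at most 851 in culture. Epithelial markers, 7 of 8, summed to between 1450 and 13358 at 0 h, highest in replicate 1. In culture they summed to 2289 and 2683 at 12 h and to between 1004 and 2097 at 24 h. These sums overlapped the range of 0 h. At 36 and 48 h they were at most 600 and 1205. Macrophage markers, 3 of 6, summed to between 733 and 978 at 0 h and to between 247 and 565 in culture. The sums for muscle and nerve were higher in some cultures than at 0 h. Muscle markers, 2 of 3, summed to between 96 and 571 at 0 h and reached 2025 at 36 h. Schwann and nerve markers, 2 of 5, summed to between 232 and 803 at 0 h and reached 1763 at 24 h. The latter rise was that of Tubb3 alone (2.96 at 24 h). Erbb3 fell, by -1.36 at 24 h and -2.29 at 48 h (adjusted p = 0.0135 and 0.000366 in limma). In such bulk samples, fewer cells of a type and less RNA per cell cannot be told apart, and the part of these cells in the Zfp differences was not tested. The departure of 0 h replicate 3 from its group ran with the difference of 12 h replicate 1 from replicate 2 over Zfp genes (r = 0.67 across genes, which are not independent replicates). Both ran with transcript length over all transcripts, at Spearman 0.28 and 0.39, and with 2 libraries at 12 h it cannot be told which of them departed. Values without these libraries are given where they change a result.

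As a whole the family kept its mean. The mean log2 level over the 322 genes was 8.66 ± 0.04 (SD, n = 3) at 0 h, 8.64 ± 0.01 (n = 2) at 12 h, 8.63 ± 0.03 at 24 h, 8.63 ± 0.01 at 36 h, then 8.66 ± 0.03 at 48 h (n = 3 each). Every step lay within the spread of the 0 h libraries, from 8.62 to 8.68. The level of tissue was lower, at 8.40. The mean over all transcripts, 9.28 at 0 h and 9.29 in tissue, is held nearly constant by the shared distribution of scores.

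The steady mean covered opposite movements of the KRAB genes and the rest. The mean of the 162 KRAB genes was 8.09 ± 0.05 at 0 h, 8.14 ± 0.05 at 12 h, 8.20 ± 0.05 at 24 h, 8.23 ± 0.02 at 36 h, then 8.30 ± 0.04 at 48 h. That of the 160 others was 9.24 ± 0.07, 9.14 ± 0.08, 9.05 ± 0.02, 9.04 ± 0.01 and 9.03 ± 0.03 in the same order. The KRAB mean thus lay higher, and the other mean lower, at each later time. Within a library the KRAB mean minus the other mean was -1.07, -1.11 and -1.26 in the 0 h libraries, -1.09 and -0.91 at 12 h, and -0.88, -0.83 and -0.84 at 24 h. It was -0.83, -0.80 and -0.79 at 36 h, then -0.72, -0.72 and -0.74 at 48 h, so the 0 h and 48 h libraries did not overlap. The tissue library, at -1.12, sat among those of 0 h. No p-value is given for these means, since the split was examined with results in view.

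**Figure D1:**
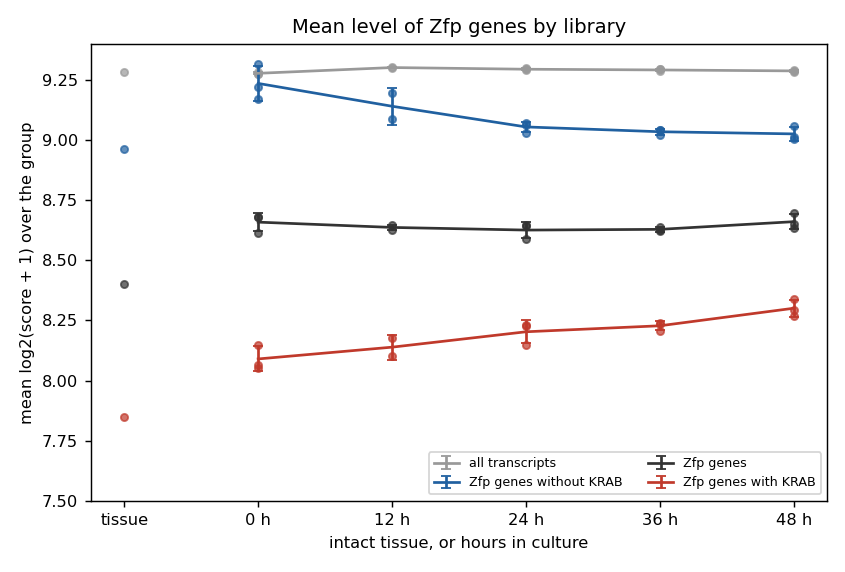
Mean log2(score + 1) over all transcripts (grey), Zfp genes (black) and Zfp genes with (red) or without (blue) a KRAB match. The grey mean is held nearly constant by the shared distribution of scores. Points are libraries, lines join the means of the time points and error bars are the SD over 2 or 3 libraries. The black line stays between 8.63 and 8.66 while red goes from 8.09 to 8.30 and blue from 9.24 to 9.03, and the tissue points of all 3 Zfp groups lie below those of 0 h.

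Called genes were then counted in each group. All 4 comparisons of this paragraph share the 0 h libraries. At 12 h, 73 Zfp genes were called higher and 87 lower than at 0 h, where 29.9% and 28.3% of all transcripts tested were called. The 12 h calls were 44 higher and 38 lower among KRAB genes, and 29 and 49 among the others. At 24 h, 85 were higher and 104 lower, against a background of 35.0% and 31.8%. The 24 h calls were 57 higher and 41 lower with KRAB, and 28 and 63 without. At 36 h, 99 were higher and 107 lower, against 36.0% and 34.0%, with 68 and 43 among KRAB genes and 31 and 64 among the others. At 48 h, 109 were higher and 101 lower, against 37.1% and 34.0%. The higher calls of that time were 75 KRAB genes (46.3%) and 34 others (21.2%), and the lower calls were 37 KRAB genes (22.8%) and 64 others (40.0%). The median change at 48 h was 0.22 with KRAB, -0.18 without and 0.03 over all transcripts. Over 2-fold, 33 Zfp genes rose and 35 fell at 48 h, 21.1% of the family, where 32.0% of all transcripts did either.

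**Figure D2:**
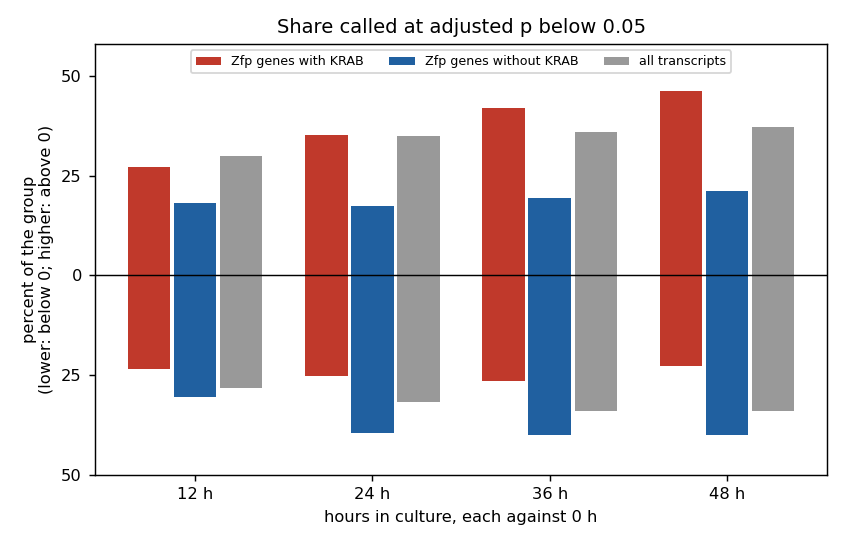
Percent of each group called higher (bars above 0) or lower (bars below 0) than at 0 h at an adjusted p below 0.05 in limma, for Zfp genes with KRAB (red), without KRAB (blue) and all transcripts (grey). The red bars above 0 grow from 27.2% at 12 h to 46.3% at 48 h and the blue bars below 0 from 30.6% to 40.0%.

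KRAB genes differ from the other members in level, GC content and near-identical copies, so the split was also described within each of these. Among Zfp genes in the lower part of the GC range the median change at 48 h was 0.26 with KRAB and -0.01 without, and in the upper part 0.13 and -0.27. By mean level the medians were 0.28 and -0.02 among scarce genes, and 0.07 and -0.23 among abundant ones. By transcript length they were 0.36 and -0.02 among short transcripts, and 0.07 and -0.24 among long ones. Reads of close paralogs may have been divided between genes, and 51 members, 38 of them with KRAB, shared over 20% of the 50-base windows of their listed transcript with another gene. Without those 51, the calls at 48 h were 54 higher and 34 lower of 124 KRAB genes, with a median change of 0.12, and 30 higher and 63 lower of 147 others, with a median of -0.20. Calls were also counted by finger number, with no even trend and no test. These counts too are read beside the 37.1% higher and 34.0% lower of all transcripts. Of 37 genes with 1 to 4 fingers, 2 of them with KRAB, 5 were higher and 22 lower at 48 h, with a median of -0.45. Of 84 with 5 to 9 fingers, 33 of them with KRAB, 25 were higher and 23 lower, with a median of 0.007. Of the 121 with 10 to 14 fingers, 80 of them with KRAB, 47 were higher and 33 lower, with a median of 0.10. Of 70 with 15 to 60 fingers, 46 of them with KRAB, 28 were higher and 19 lower, with a median of 0.038. Of 10 in which 0 fingers were counted, 1 of them with KRAB, 4 were higher and 4 lower, with a median of 0.36.

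The time of the highest mean was counted too, with no test. Since 0 Zfp genes were called between 36 and 48 h, highest means at these times are not told apart. Of KRAB genes, 65 (40.1%) had their highest mean at 48 h and 52 (32.1%) at 0 h. Of the others, 25 (15.6%) were highest at 48 h and 72 (45.0%) at 0 h, and over all transcripts the shares were 20.8% and 36.4%.

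Once in culture, fewer members were called between successive times than in the comparisons with 0 h. From 12 to 24 h, 3 members rose and 10 fell, against 4.59% and 3.67% of all transcripts. These counts rest on the 2 libraries of 12 h. Without 12 h replicate 1 they were 0 and 1, and without 12 h replicate 2 they were 5 and 21. Without 24 h replicate 1, 2 or 3 they were 3 and 6, 0 and 3, and 1 and 8. From 24 to 36 h, 14 rose and 17 fell, against 10% and 9.64%. Without 24 h replicate 2 these counts were 4 and 6, without 24 h replicate 3 they were 4 and 5, without 36 h replicate 1 they were 5 and 7, and without 36 h replicate 2 they were 5 and 4. From 36 to 48 h, 0 Zfp genes were called in either direction by limma, 21 had an unadjusted p below 0.05, and 0.0% and 0.0248% of all transcripts were called. From 12 to 48 h, 63 rose and 45 fell, against 21.2% and 21.0%, and these were 48 and 11 among KRAB genes and 15 and 34 among the others. Without 12 h replicate 1 the numbers were 32 and 29, the 12 h group then being a lone library taken to vary like the others.

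The largest rise at 48 h was that of Zfp365, a gene linked to genome stability and without C2H2 match here. It lies on chromosome 10, chr10:67886103-67912662, minus strand. Its scores were 145, 136 and 207 at 0 h, 763 and 628 at 12 h, 1103, 1083 and 1201 at 24 h, 1578, 1464 and 972 at 36 h, then 1626, 1412 and 1479 at 48 h, with 152 in tissue. All cultured libraries lay above all fresh ones, and tissue lay within the 0 h libraries. The rise was 3.23 (SE 0.18, adjusted p = 9.17e-09), or 9.35-fold, and 2.11 (SE 0.20, adjusted p = 2.59e-06) was already there at 12 h.

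Among the KRAB genes the largest rises were those of Zfp688, Zfp456, Zfp52, Zfp54 and Zfp354a. Zfp52 (chr17:21555046-21562066, plus strand) had scores of 92, 111 and 104 at 0 h, 206 and 227 at 12 h, 303, 270 and 276 at 24 h, 379, 357 and 443 at 36 h, then 534, 410 and 471 at 48 h, with 126 in tissue. Its groups did not overlap up to 36 h, and only 36 h and 48 h did. The change at 48 h was 2.19 (SE 0.13, adjusted p = 1.37e-08). Its neighbour Zfp54 went from 156, 119 and 66 at 0 h to 450, 441 and 394 at 48 h, a change of 1.99 (SE 0.24, adjusted p = 8.19e-06), with 104 in tissue. Zfp688 (chr7:127418967-127422027, minus strand) had scores of 68, 50 and 34 at 0 h, 68 and 92 at 12 h, 173, 164 and 152 at 24 h, 304, 272 and 250 at 36 h, then 348, 230 and 206 at 48 h, with 31 in tissue. Its 12 h libraries touched those of 0 h, and the later ones did not. The change was 2.36 (SE 0.25, adjusted p = 2.23e-06) on a row listed under a retained-intron transcript, which may hold the value of the whole gene. Zfp456 changed by 2.28 (SE 0.17), from 30, 34 and 27 to 157, 144 and 152, but 51.6% of its windows were shared with another gene. Zfp354a, first known from kidney, changed by 1.65 (SE 0.12, adjusted p = 9.29e-08), from 141, 169 and 173 to 509, 523 and 484, with 20.4% shared. The remaining large rises were those of Zfp804a, by 2.10 (SE 0.27, adjusted p = 1.45e-05), and Zfp691, by 1.71 (SE 0.19, adjusted p = 3.7e-06).

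The largest fall was that of Zfp423, a factor of 28 fingers here that binds Ebf and Smad proteins and acts in preadipocyte commitment (chr8:87661810-87804439, minus strand). Its scores were 891, 824 and 1268 at 0 h, 572 and 288 at 12 h, 145, 161 and 250 at 24 h, 197, 174 and 111 at 36 h, then 166, 179 and 190 at 48 h, with 819 in tissue. Every cultured library was below every fresh one. The change at 48 h was -2.45 (SE 0.29, adjusted p = 6.43e-06), or 5.46-fold lower.

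KRAB genes were also among the largest falls. Zfp354c, described as a regulator of osteoblast differentiation and a paralog of the rising Zfp354a on the same chromosome, had scores of 2051, 1897 and 2347 at 0 h, 960 and 737 at 12 h, 565, 499 and 487 at 24 h, 437, 398 and 315 at 36 h, then 378, 436 and 388 at 48 h, with 1562 in tissue. Its change was -2.38 (SE 0.14, adjusted p = 1.13e-08), opposite in sign to the 1.65 of Zfp354a. Zfp810 fell from 369, 451 and 457 to 84, 77 and 72 (-2.44, SE 0.16, adjusted p = 3.52e-08), with 275 in tissue. Of the falls without KRAB, Zfp618 was the most even, from 2161, 2091 and 2554 at 0 h to 1094 and 933 at 12 h, then 406, 501 and 461 at 48 h, with 1823 in tissue (-2.31, SE 0.11, adjusted p = 1.43e-09). Zfp704 fell by 2.05 (SE 0.20, adjusted p = 1.32e-06), from 2847, 3500 and 4736 to 877, 821 and 929. Zfp536, a repressor of neuronal differentiation, fell by 2.17 (SE 0.32, adjusted p = 4.96e-05), from 195, 200 and 249 to 81, 42 and 30. Zfp362 (-2.27, SE 0.45, adjusted p = 0.00054) and Zfp395 (-2.05, SE 0.41, adjusted p = 0.0006) completed the list. In those last 2 genes 0 h replicate 3 was high, at 592 against 310 and 203 and at 511 against 236 and 202, and 12 h replicate 1 was high too, at 378 against 101 and at 268 against 77.

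**Figure D3:**
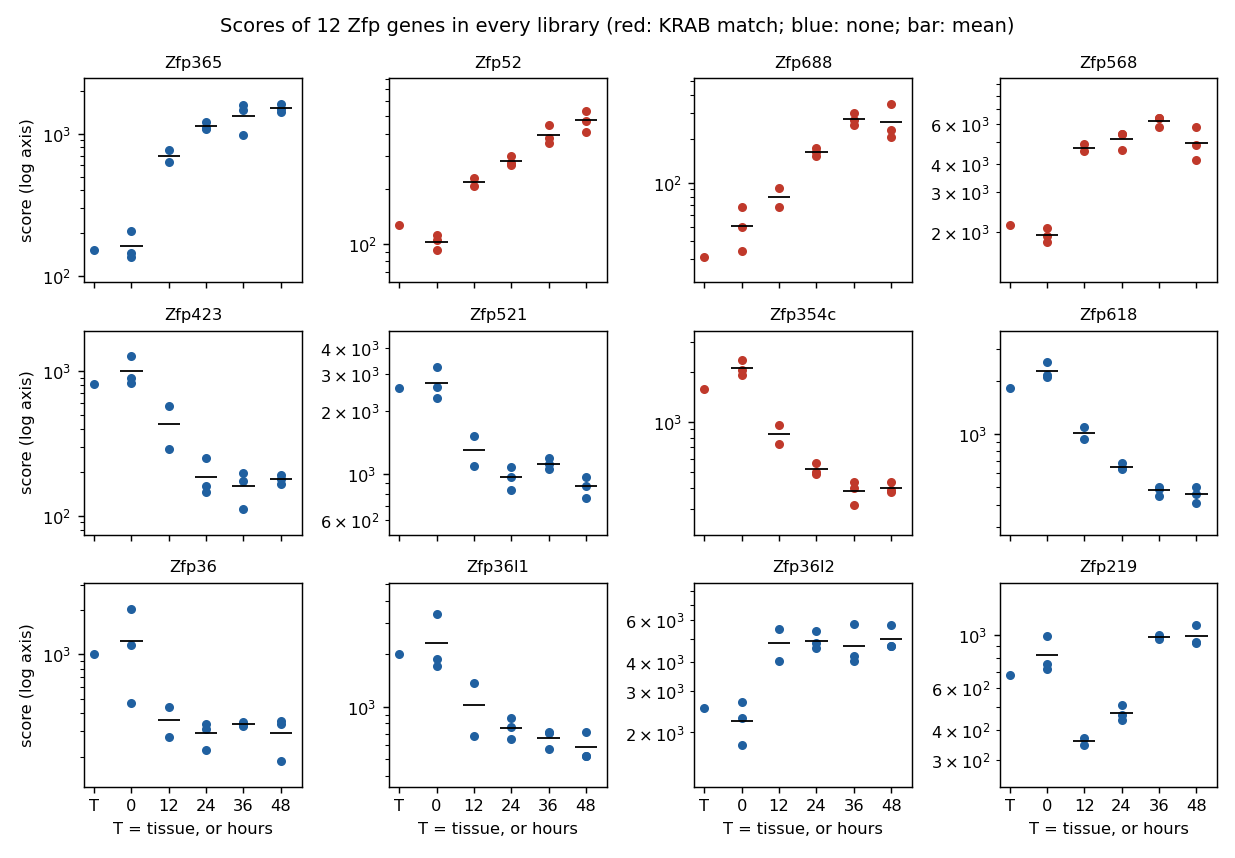
Scores of 12 Zfp genes in each library on a log axis, by time in culture or in tissue (T). Points are libraries, bars are means of time points, red marks a KRAB match and blue none. Zfp365, Zfp52, Zfp688 and Zfp568 rise, Zfp423, Zfp521, Zfp354c and Zfp618 fall, Zfp36 and Zfp36l1 fall while Zfp36l2 rises, and Zfp219 dips at 12 and 24 h.

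Genes with RNA, decay or ribosome roles had changes of either sign. Of 11 measured, 2 rose and 5 fell at 48 h, with a median change of -0.04, where 37.1% of all transcripts were higher and 34.0% lower with a median of 0.03. Such small lists are described only. The 3 CCCH genes split. Zfp36, also called tristetraprolin and quickly induced by serum in many cells, had scores of 463, 1162 and 2055 at 0 h, 438 and 274 at 12 h, 336, 311 and 222 at 24 h, 323, 332 and 345 at 36 h, then 187, 349 and 333 at 48 h, with 1010 in tissue. The fresh libraries spread widely, highest in replicate 3, and all cultured ones lay below them. The change at 48 h was -1.89 (SE 0.42, adjusted p = 0.00141), and between -2.46 and -1.39 with any 1 library of 0 h or 48 h left out. Zfp36l1 fell from 1863, 1693 and 3389 to 523, 522 and 714 (-1.92, SE 0.28, adjusted p = 3.86e-05), with 1988 in tissue. Zfp36l2 rose instead, from 1762, 2294 and 2687 at 0 h to 5533 and 4038 at 12 h, then 4644, 4644 and 5711 at 48 h, with 2550 in tissue (1.17, SE 0.18, adjusted p = 6.13e-05). No cultured library of Zfp36l2 overlapped a fresh one.

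Other genes of that list were called as well. Zfp385a, an RNA-binding partner of the p53 protein, rose by 1.40 (SE 0.43, adjusted p = 0.0104) from 53, 29 and 74 to 118, 131 and 141, and without 0 h replicate 2 the change was 1.04 and no longer called. Zfp638 (-0.39, SE 0.09), Zfp106 (-0.45, SE 0.12) and Zfp326 (-0.21, SE 0.08), which act on RNA processing, fell, the last with an adjusted p of 0.0291. The call of Zfp326 was lost without replicate 2 or 3 of either 0 h or 48 h, at changes from -0.21 to -0.19. Not called were Zfp598, a sensor of collided ribosomes, at -0.04, Zfp622 and Zfp593, which act in large ribosomal subunit assembly, at 0.22 and 0.21, and Zfp346, which binds double-stranded RNA, at 0.16.

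Partners of the CCCH proteins in mRNA decay were described from a list of 37 measured genes. At 48 h 6 (16.2%) were higher and 18 (48.6%) lower, where 37.1% and 34.0% of all transcripts were, with a median of -0.21. The largest falls were those of Btg1 (-1.74), Pan2 (-1.61), the deadenylase Cnot6 (-1.43) and Btg2 (-1.27). Btg2 had 4065, 10466 and 17403 at 0 h against 4255, 3560 and 3497 at 48 h, so its groups overlapped, and without 0 h replicate 3 its change was -0.80 and still called. The exosome subunit Exosc9 (1.03), the decapping factor Lsm1 (0.86), Exosc7 (0.55) and Exosc3 (0.43) had the largest called rises. Without 0 h replicate 3 those of Exosc7 and Exosc3 were 0.30 and 0.23 and not called, and other left-out libraries also ended these 2 calls.

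Of 14 measured regulators of mesenchyme, skeleton, tooth and progenitors, a list chosen with results known, 1 (7.14%) rose and 9 (64.3%) fell at 48 h, where 37.1% and 34.0% of all transcripts did. The median change was -0.55. Zfp521, the close relative of Zfp423 that acts in osteoblast and blood progenitors, had scores of 2308, 2599 and 3222 at 0 h, 1521 and 1084 at 12 h, 1078, 970 and 840 at 24 h, 1196, 1114 and 1048 at 36 h, then 877, 968 and 768 at 48 h, with 2584 in tissue. Tissue lay among the fresh libraries and all cultured ones lay below (-1.63 at 48 h, SE 0.15, adjusted p = 7.62e-07). Zfp467, which acts in the choice of stromal cells between fat and bone, fell by 1.65 (SE 0.22, adjusted p = 2.33e-05), from 330, 257 and 437 to 88, 140 and 96. Zfp422, known from developing teeth, fell by 1.04 (SE 0.09, adjusted p = 4.32e-07), from 2109, 1731 and 1922 to 906, 937 and 941, with 1809 in tissue. Zfp462 fell by 1.21 (SE 0.28, adjusted p = 0.00186), with 2027, 1312 and 2763 at 0 h, again highest in replicate 3. Smaller falls were those of Zfp148 (-0.70, SE 0.12), a factor of G-rich sites, Zfp217 (-0.40, SE 0.11), a co-repressor component, and Zfp516 (-0.37, SE 0.11), a brown fat regulator.

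Members of that list followed other courses as well. Zfp219, a partner of Sox9 in cartilage, had scores of 996, 722 and 754 at 0 h, 371 and 348 at 12 h, 510, 465 and 442 at 24 h, 965, 978 and 1001 at 36 h, then 1102, 926 and 940 at 48 h. It was lower at 12 h (-1.18, SE 0.13, adjusted p = 8.94e-06), rose from 24 to 36 h (1.06, SE 0.12, adjusted p = 0.000352), and at 48 h differed from 0 h by 0.27 (adjusted p = 0.0541). Without 0 h replicate 1 that difference was 0.42 and called, and without other libraries it was as low as 0.19 and not called. Zfp503 and Zfp703 are paired repressors of the NET family. Zfp503 had 791, 486 and 518 at 0 h, 904 and 904 at 12 h, 906, 1627 and 1732 at 24 h, 582, 525 and 655 at 36 h, then 710, 1433 and 1490 at 48 h. Replicate 1 was the low library at both 24 h and 48 h, and the change at 48 h was 0.98 (SE 0.30, adjusted p = 0.01). Zfp703 was not called at 48 h (0.77, adjusted p = 0.163), with 118, 80 and 331 at 0 h, and its change was 1.35 and called without 0 h replicate 3 but 0.33 without 0 h replicate 2. Zfp281 (-0.07) and Zfp335 (0.10) were not called.

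KRAB genes known to guard imprints and retroelements were represented by 5 of 8 listed genes, or 62.5%, too few to describe that list as a whole. Zfp568, which represses the placental transcript of Igf2, had scores of 1798, 2081 and 1929 at 0 h, 4882 and 4560 at 12 h, 5449, 5399 and 4630 at 24 h, 6365, 6365 and 5804 at 36 h, then 5804, 4844 and 4169 at 48 h, with 2140 in tissue. It thus stood more than 2-fold above all fresh libraries from 12 h on (1.34 at 48 h, SE 0.11, adjusted p = 3.12e-07), and 6365 was the highest score of any member. Zfp809, which silences murine leukaemia proviruses, was scarce, at 32, 30 and 31 at 0 h and 24 in tissue, and rose to 112 and 77 at 12 h, then 80, 107 and 92 at 48 h (1.54, SE 0.18, adjusted p = 6.07e-06). Zfp932 rose by 0.46 (SE 0.12), with 55.5% of its windows shared. The imprint regulator Zfp445 fell by 0.50 (SE 0.10, adjusted p = 0.000521), and the other, Zfp57, was not called at -0.32 (adjusted p = 0.0559).

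Partners of KRAB proteins were described from 37 measured co-repressor genes. At 48 h, 3 (8.11%) were higher and 23 (62.2%) lower, where 37.1% and 34.0% of all transcripts were, with a median of -0.60. Trim28, which KRAB binds, had a score of 18515 in each fresh library and 8729, 10434 and 11063 at 48 h, with 13655 in tissue (-0.89, SE 0.09, adjusted p = 1.47e-06). Setdb1 went from 2591, 2235 and 2290 to 1522, 1402 and 1318 (-0.74, SE 0.09, adjusted p = 9.13e-06). The largest falls were those of the DNA methyltransferase Dnmt3a (-2.25), the Setdb1 cofactor Atf7ip (-1.59), the heterochromatin protein Cbx3 (-1.42) and Chd3 (-1.39). The 3 that rose were Morc3 (0.61), Mbd2 (0.53) and Mphosph8 (0.52).

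General transcription, chromosome and stress genes, all 12 measured, gave 3 rises and 6 falls at 48 h, against 37.1% and 34.0% of all transcripts, with a median of -0.27. Besides Zfp365, the rises were those of Zfp143, a promoter and looping factor (0.71, SE 0.11, adjusted p = 0.000101), and the ubiquitin ligase Zfp91 (0.51, SE 0.07, adjusted p = 3.2e-05, with 26.6% of windows shared). Zfp318 (-1.21, SE 0.13), Zfp292 (-1.15, SE 0.17), Zfp711 (-0.99, SE 0.10), Zfp207 (-0.71, SE 0.09), Zfp644 (-0.55, SE 0.06) and Zfp263 (-0.34, SE 0.10) fell. Zfp110, Zfp664 and Zfp64 were not called, at 0.07, -0.20 and 0.23. Of the genes most abundant per kb, Zfp740 fell from 6211, 5909 and 6335 to 2667, 2488 and 2538 (-1.26, SE 0.07, adjusted p = 6.98e-09), Zfp260 fell by 0.74 (SE 0.11) and Zfp407 by 0.44 (SE 0.08). Of the genes whose upstream regions are printed, Zfp719 and Zfp800 were picked among those called higher, with changes of 1.52 (adjusted p = 1.28e-08) and 1.28 (adjusted p = 1.36e-06).

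Genes named for steps within culture were few. From 12 to 24 h the called rises were those of Zfp688 (1.03, adjusted p = 0.0384), Zfp354a (0.51, adjusted p = 0.0374) and Zfp979 (0.39), and the largest falls those of Zfp423 (-1.17, adjusted p = 0.0431), Zfp185 (-1.11), Zfp704 (-0.87) and Zfp354c (-0.70, adjusted p = 0.0162). Each of these 7 lost its call without 12 h replicate 1, and with any 1 library left out Zfp423 ranged from -1.66 to -0.68 and Zfp704 from -1.16 to -0.58. From 24 to 36 h, Zfp536 (1.13, adjusted p = 0.0281), Zfp219, Zfp93 (0.84) and Zfp3 (0.83) rose the most. Zfp503 (-1.22, adjusted p = 0.0145), Zfp90 (-0.74), Zfp280b (-0.68, adjusted p = 0.00828) and Zfp704 (-0.66) fell the most. Leaving out single libraries of 24 h or 36 h ended the calls of Zfp3 (3 of 6 libraries, values from 0.65 to 0.99), Zfp536 (4 of 6, from 0.92 to 1.31), Zfp503 (3 of 6, from -1.52 to -1.05) and Zfp704 (5 of 6, from -0.79 to -0.49), and of none of the other 4 genes. Zfp280b had peaked early, with 475, 513 and 706 at 0 h, 1185 and 962 at 12 h, then 452, 590 and 520 at 48 h.

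Members sit in tandem clusters. Their counts at 48 h are read beside the 37.1% higher and 34.0% lower of all transcripts. Chromosome 7 held 23.6% of Zfp genes against 7.02% of all transcripts, chromosome 17 held 45 of them against 4.72% of all, and chromosome 13 held 8.7% against 4.07%. With neighbours joined at gaps up to 200 kb and at least 4 members required, 13 clusters held 115 genes. The largest, chr17:21383748-22447416 with Zfp51 to Zfp54, held 18 genes, all with KRAB. At 48 h 14 of them were higher and 1, Zfp760, lower, with a median of 0.56 and a range from -0.32 to 2.19. A cluster on chromosome 13 (chr13:67038596-67755228) held 16 genes, 9 of them higher and 0 lower, with a median of 0.37. Those included Zfp595 (1.09), Zfp429 (1.55, 25.3% of windows shared) and Zfp874a (1.40). The second cluster of chromosome 17 (chr17:32765496-33394378) held 11 genes, 10 with KRAB, and leaned down, with 2 higher, 6 lower and a median of -0.27. Zfp799 (-1.19) and Zfp871 (-1.02) fell there and Zfp870 (0.79) rose. On chromosome 7, the cluster of Zfp568 and Zfp260 (chr7:29768552-30169727, 15 genes) gave 7 higher and 4 lower, and that of Zfp93 (chr7:24081924-24515419, 11 genes) 6 and 3. KRAB genes of different clusters thus had medians of either sign. Genes of a cluster share sequence and are not independent, and these counts had no test.

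**Figure D4:**
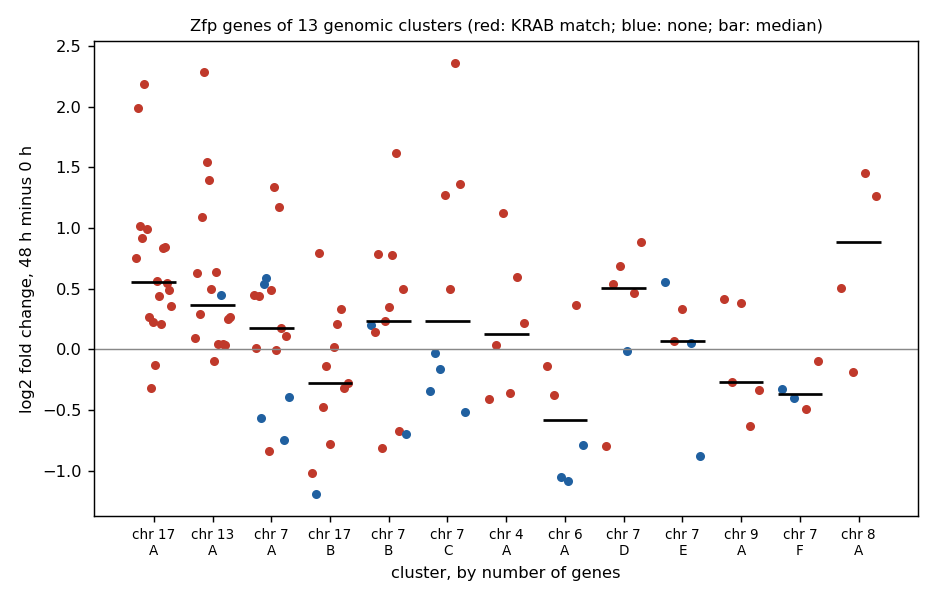
Log2 fold change at 48 h against 0 h of each gene in 13 clusters of Zfp genes, ordered by size, with genes in chromosomal order within a cluster. Points are genes, red with a KRAB match and blue without, and bars are medians. The largest clusters of chromosomes 17 and 13 have medians of 0.56 and 0.37 and the second of chromosome 17 has -0.27.

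Tissue had lower Zfp scores than freshly isolated cells. Tissue lay below all 3 fresh libraries in 204 of 322 members (63.4%), where 32.0% of all transcripts did, and above all 3 in 36 (11.2%), against 29.7%. Markers of other cells also differed in tissue. Muscle markers, 2 of 3 measured, summed to 2411 in tissue against 96 to 571 at 0 h, macrophage markers, 3 of 6, to 1290 against 733 to 978, and endothelial markers to 9070 against 6827 to 8013. Red cell (135500) and epithelial (4902) sums of tissue lay within those of 0 h, and the part of these cells in the tissue values was not tested. The median difference was -0.24 over members and -0.01 over all transcripts. The shift was small but broad, with 8 members lower and 1 higher by over 2-fold, where 1.22% and 2.58% of all transcripts were. Each fresh library was the lowest of the 4 in 33 (10.2%), 34 (10.6%) and 48 (14.9%) members, respectively, where 21.1%, 11.3% and 33.1% of all transcripts had it lowest. It held with and without KRAB, at 64.8% and 61.9% of members below. Among members at or below 45.5% GC, 59.0% lay below, against 27.2% of other transcripts of that range, and above it 67.7% against 32.4%. Among members up to 3091 bases 60.2% lay below against 24.9% of others, and among longer ones 66.5% against 38.5%. With 1 tissue library, intact tissue and a property of that library cannot be told apart.

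Few members stood far from fresh cells in tissue. The lowest was Zfp213, with 120 in tissue against 485, 434 and 326 at 0 h (-1.76) and scores from 303 to 462 in culture. Next were Zfp703 (54 against 118, 80 and 331), Zfp697 (96 against 252, 212 and 255) and Zfp941 (41 against 104, 80 and 98). The highest was Zfp954, with KRAB, at 462 against 199, 257 and 214 (1.05), and it also rose in culture, by 1.17 at 48 h (adjusted p = 4.71e-06). Zfp691 (54 against 36, 35 and 30), Zfp711 (1445 against 850, 882 and 1079) and Zfp367 (1605 against 802, 1205 and 1264) were also above all fresh libraries. Zfp711 ran down a gradient, from tissue through 0 h to 454, 495 and 460 at 48 h.

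**Figure D5:**
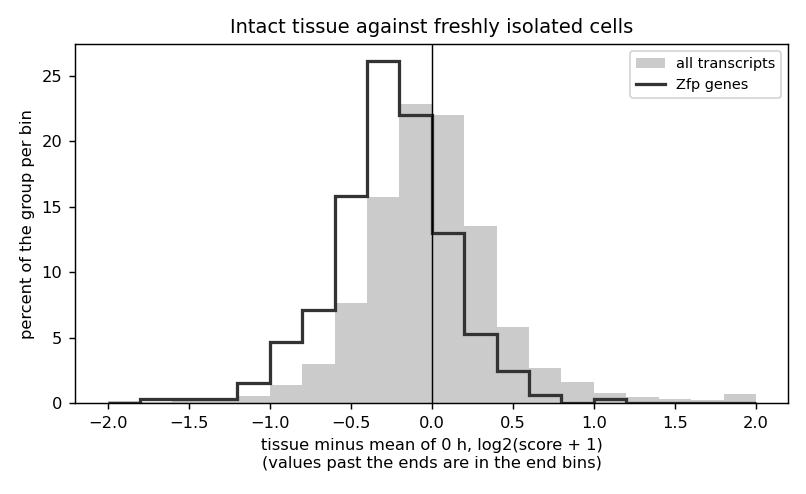
Distribution of the difference between the tissue library and the mean of 3 fresh libraries, in log2(score + 1), as percent of Zfp genes (black line) and of all transcripts (grey) per bin. The black outline is shifted to the left of 0, with a median of -0.24 against -0.01.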

How the data were processed

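Messenger RNA of 15 libraries (TruSeq RNA kit, which does not mark strand) was sequenced by the authors, who trimmed adaptors, aligned with bowtie to mouse transcripts (mm10) and quantified with RSEM, version 1.1.21 in the submitters' processing notes. The deposited values are a normalized whole-number score per row, each row listed under 1 transcript. Whether a score counts that transcript or the whole gene, and the step that made it, are not given in the sources used here. All libraries have the same median (721), the same maximum (127101) and totals of 21357605 to 21365980, so they are neither counts nor CPM, although labelled as the latter, and depth and counting intervals are unknown.

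Transcripts were matched to GENCODE vM21 (GRCm38), and C2H2, CCCH and KRAB patterns were searched in each gene's longest translated coding sequence. log2(score + 1) of the 14 mDMC libraries was modelled with limma 3.58.1 under R 4.3.3, using time point as the factor and an intensity trend. The 12079 transcripts tested reached 1 ppm of the summed scores in 2 or more libraries, and all 322 members passed. Calls used a Benjamini-Hochberg adjusted p below 0.05. On simulated data for 48 h against 0 h, with all 12089 transcripts, 81 of 100 genes changed 2-fold and 97 of 100 changed 4-fold were called. No other gene was changed there and the noise was independent between libraries, a simpler setting than that of the data. Tissue, with 1 library, was compared without a test.

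The members (as a family, by a rule on names), role lists and partner lists were chosen with earlier results of these data known. The text names every role-list member, the 8 largest rises and falls at 48 h with no overlap between libraries, up to 4 each way for steps in culture and for tissue, the 5 highest per kb and up to 4 partners each way. Zfp719, Zfp800, Zfp146 and the genes named for clusters and promoters were added after their values were seen. Deviations of libraries with the same replicate number correlated weakly between 24 and 36 h (0.165, 0.145 and 0.126). They also did between 24 and 48 h (0.298, 0.2 and 0.315), times that were not compared. In comparisons with 0 h the correlations had either sign (-0.245 to 0.319). Correlations between different numbers were not computed, so equal numbers are not shown to be pairs. Alternatives were other pseudocounts (0.1 and 10), filters, scaling, spread estimates, a replicate block and left-out libraries.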

Additional observations from a re-analysis of the deposited data

How the results depend on the processing

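The settings were other pseudocounts (0.1 and 10), no filter, a filter in all 14 libraries, trimmed-mean scaling, no intensity trend and the replicate block. Means without the CCCH genes and counts without genes of shared windows were also taken. The values compared were the counts of Zfp genes called at each comparison of times and the family mean changes against 0 h. The KRAB and other counts and means at 48 h against 0 h were compared too. As far as each setting bears on them, these values stayed within 1.5 times their value or within the spread between libraries. Means of the KRAB and other genes without genes of shared windows are not covered. The median change of KRAB genes at 48 h was 0.22, and 0.12 without genes of shared windows. Counts for role lists, partners, finger numbers, clusters, peak times and tissue, and KRAB counts at other times, were not recomputed under these settings. Fitting only the compared time points gave 45 higher Zfp genes at 12 h against 0 h, 0 higher and 0 lower from 12 to 24 h, 32 higher from 24 to 36 h and 39 higher from 12 to 48 h. Requiring an unadjusted p below 0.05 and over 2-fold change gave, against 0 h, 19, 26, 32 and 33 higher genes and 20, 27, 32 and 35 lower genes, in order of time. The same rule gave 1 and 6 from 12 to 24 h, 2 and 1 from 24 to 36 h, and 9 and 12 from 12 to 48 h. The change of each time's median level over members, which is not the median of the genes' changes, gave in place of the mean -0.066, 0.033, 0.105 and 0.098 at 12, 24, 36 and 48 h, and 0.362 for KRAB genes at 48 h. The median of the genes' changes had the opposite sign at 24 and 36 h, -0.044 and -0.05.

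With 1 library of the compared times left out, counts of higher and lower genes ranged from 0 to 5 and 1 to 21 (12 to 24 h), 4 to 12 and 4 to 18 (24 to 36 h), 0 to 1 and 0 to 1 (36 to 48 h), and 32 to 59 and 29 to 47 (12 to 48 h). At 48 h against 0 h, 178 of 210 calls were kept under each of the 6 fits that left out 1 library of 0 h or 48 h. KRAB counts there stayed at 67 to 76 higher and 33 to 37 lower, and those of the others at 31 to 33 and 58 to 65. No value changed sign while called. Among genes not called at 48 h, Zfp219, Zfp346, Zfp593, Zfp64 and Zfp703 were called without 1 of the libraries, and Zfp57 under trimmed-mean scaling and with only the compared time points. For single named genes 49 checks lost the call and 8 gained it, and 958 did neither. The alternatives for KRAB groups, for shared windows and for partner genes without 1 library were chosen after seeing the data.

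With the replicate number as a block, Zfp219 at 48 h against 0 h became called at an unchanged 0.27. No other call changed among the genes and comparisons chosen by the naming rule, the only ones recomputed with the block. Among the comparisons made, all same-number correlations were positive for 24 h against 36 h alone. Correlations between different numbers were not computed, so a pairing is not established. Depth is unknown, so the precision of scarce Zfp genes cannot be given beyond the spread between libraries.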

Other observations

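Zinc finger genes outside the Zfp names were also measured. A KRAB-like match was found in 33 genes not named Zfp, 31 of them with C2H2 fingers, and 14 of the 33 were higher and 9 lower in 48 h cultures than in fresh cells, with a median of 0.12. Over all transcripts 37.1% were higher and 34.0% lower. The 112 measured genes of other zinc finger families gave 29 higher and 41 lower, with a median of -0.06, again beside 37.1% and 34.0%. In the tissue library 47.3% of these 112 and 57.6% of the 33 lay below all 3 fresh libraries, as did 56.8% of the KRAB co-repressor genes and 51.4% of the mRNA decay partners, against 63.4% of Zfp genes and 32.0% of all transcripts. The mean log2 level of the 112 genes had an SD among fresh libraries of 0.19 around 9.04 (n = 3), against 0.04 around 8.66 for Zfp genes, with replicate 3 the highest at 9.25. These differences between gene groups had no test.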
